A study of Homo sapiens with 6 samples.

Results

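The 10 genes described here encode brakes on NF-kB signalling, targets of those brakes, and an IkB family member that works mainly as a coactivator (NFKBIZ). The genes are TNFAIP3 (the protein A20), MIR146A, NFKBIA, NFKBIE, NFKBIZ, TNIP1, TNIP2, IRAK1, TRAF6 and CYLD. They are 10 of 19775 genes that had at least 1 probe set annotated with a single gene symbol, and they had 25 such probe sets. TNFAIP3 and MIR146A were selected on their higher signal in versican arrays, and NFKBIA on its near-equal signal in both groups. The values of these 3 genes are therefore given as a description, without a test. The other 7 genes were added as parts of the same pathway and were tested, although earlier results of these arrays were known when they were listed.

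RNA came from OVCA433, an established line of high-grade serous ovarian cancer, grown in RPMI1640 with 10% fetal bovine serum. At 24 hours after seeding the medium was replaced, without versican in the 3 control samples and with versican (a proteoglycan of the extracellular matrix that carries chondroitin sulfate chains) in the 3 treated ones. RNA was taken 48 hours after treatment, as the samples are labelled. No dose or form of versican was given in the sources used here, and the protocol speaks of transfected cells at harvest although no sample is described as transfected.

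Each of 6 Affymetrix Human Genome U133 Plus 2.0 arrays received labelled cRNA made from 100 ng of total RNA. Samples of a group are said to be independent, but nothing names separate cultures or days, so a p-value here reflects only how much these samples vary, part of which may be technical. Pearson correlations of log2 values across genes were 0.993 to 0.995 within a group, against 0.969 to 0.972 for a control with a versican array. Of 10 epithelial and serous markers, 9 were tested. PAX8, a transcription factor of the Müllerian lineage, rose from 2034 ± 150.4 to 3805 ± 259 (SD, n = 3 each; log2 0.90, limma adjusted p = 6.09e-06). KRT19 and MSLN fell by 0.21 and 0.30 (adjusted p = 0.0157 and 0.0191), and the other 6, among them KRT8, KRT18, EPCAM and CDH1, did not pass; WT1 was dim in both groups, with a mean of 8.88 ± 5.99 (SD, n = 3) without versican and 27.9 ± 7.74 (SD, n = 3) with it.

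NF-kB is a transcription factor held in the cytoplasm by inhibitors of the IkB family. Interleukin-1 and Toll-like receptors signal through the kinase IRAK1 and the ubiquitin ligase TRAF6 to the IkB kinase, which marks IkB for destruction. The freed factor then switches on its own brakes. These include new IkB alpha, the ubiquitin-editing enzyme A20 with its partners TNIP1 and TNIP2, and the microRNA miR-146a, which represses IRAK1 and TRAF6. CYLD is a deubiquitinase that acts on the same ubiquitin chains. In epithelial tumour cells, including those of the ovary, the pathway drives chemokine and cytokine genes.

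The microRNA and its closest relative are shown because base pairing through the seed, bases 2 to 8, is what defines its targets. Of 2545 mature human microRNAs in RefSeq (GRCh38.p14), 3 carry this seed, namely miR-146a-5p, miR-146b-5p and miR-7153-5p. The first 2 below share 20 of 22 bases when aligned from the first base without gaps. In these 2 sequences the seed is in capitals.
hsa-miR-146a-5p: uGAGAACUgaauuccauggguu
hsa-miR-146b-5p: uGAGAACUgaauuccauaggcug
The 99-base hairpin that yields miR-146a lies on the plus strand at chr5:160485352-160485450 (GRCh38.p14). Its 5p and 3p mature arms are in capitals.
MIR146A hairpin: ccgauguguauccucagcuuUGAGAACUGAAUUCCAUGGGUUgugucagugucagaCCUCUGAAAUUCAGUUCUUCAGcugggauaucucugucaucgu
RefSeq places this hairpin inside MIR3142HG, a long noncoding RNA. The array probe sets annotated MIR146A read labelled cRNA of a longer primary transcript, and the mature microRNA was not measured.

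The promoters of the brakes are shown because NF-kB is known to induce several of these genes directly. RefSeq windows of 250 bases before to 50 after each start were found for 8 of the 10 genes (12 windows), and for MIR3142HG. NFKBIE and MIR146A had no entry. The kappaB consensus, the 10-base motif that NF-kB binds, was searched on both strands. It was found in 7 of the 12 windows, which belong to TNFAIP3, NFKBIA, NFKBIZ, TNIP1 and CYLD, and in that of MIR3142HG, against 5.91% of 35116 windows of all genes. The windows below are upstream of the start, read in the direction of the gene, with kappaB matches in capitals. They lie at chr6:137867139-137867258 (plus strand) for TNFAIP3, chr5:160468111-160468230 (plus) for MIR3142HG, chr5:151081035-151081154 (minus) for TNIP1 and chr14:35404750-35404869 (minus) for NFKBIA, all in GRCh38.p14.
TNFAIP3: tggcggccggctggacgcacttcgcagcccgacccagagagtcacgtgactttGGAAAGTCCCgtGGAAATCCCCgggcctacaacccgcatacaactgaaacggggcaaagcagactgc
MIR3142HG: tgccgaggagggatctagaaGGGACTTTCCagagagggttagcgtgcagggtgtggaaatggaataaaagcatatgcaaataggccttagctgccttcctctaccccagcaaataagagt
TNIP1: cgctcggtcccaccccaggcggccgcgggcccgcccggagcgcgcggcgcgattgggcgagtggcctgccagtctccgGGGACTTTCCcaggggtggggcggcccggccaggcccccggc
NFKBIA: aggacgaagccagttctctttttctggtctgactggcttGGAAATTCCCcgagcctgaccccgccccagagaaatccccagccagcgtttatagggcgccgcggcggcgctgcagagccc

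TNFAIP3 held matches at positions -67 to -58 and -55 to -46 from its start, both on the opposite strand to the gene. The first of these reads GGGACTTTCC on that strand. The same letters stood at -120 to -111 in MIR3142HG, at -42 to -33 of 1 of the 2 TNIP1 starts and at -189 to -180 of 1 of the 3 CYLD starts, on either strand. GGGACTTTCC occurs in 67 of the 35116 windows (0.191%). NFKBIA held GGGAATTTCC on the opposite strand at -81 to -72, and the first NFKBIZ start held the same letters at -223 to -214; they occur in 0.145% of windows. Both NFKBIA and that NFKBIZ start also had the motif TATAAA (11.5% of windows), at -33 to -28 and -29 to -24. It stood on the opposite strand to the gene in NFKBIA and on the gene's own strand in NFKBIZ. No match of TATAAA overlapped a kappaB match. The AP-1 motif TGACTCA was found in IRAK1 alone among these genes (4.95% of windows). A match describes the letters in these windows and says nothing of binding in these cells.

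**Figure D1:**
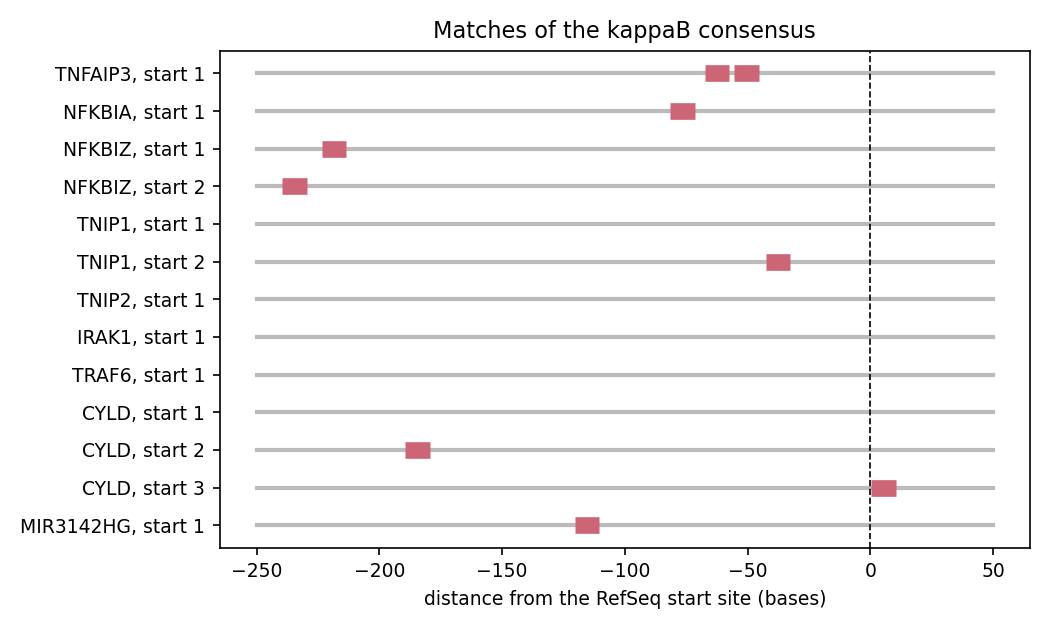
Positions of kappaB consensus matches (pink boxes) in promoter windows from 250 bases before to 50 after each RefSeq start (grey lines), with the distance from the start in bases on the x axis and 1 row per start. TNFAIP3 has 2 matches within -67 to -46, while TNIP2, IRAK1 and TRAF6 have none in their windows.

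TNFAIP3 and MIR146A, selected for higher signal with versican, and NFKBIA, selected for near-equal signal, are described first. Signals are MAS5 values on a linear scale with arbitrary units, and log2 fold changes were taken from log2(signal + 16), versican minus control. Signal of the brightest TNFAIP3 probe set was 1903, 2025 and 2026 on the control arrays and 4192, 4339 and 4260 on the versican arrays. The groups did not overlap, and the lowest versican array was above the highest control array by more than the spread within either group. Mean signal was 1985 ± 70.6 and 4264 ± 73.3 (SD, n = 3 each), a log2 fold change of 1.10 or 2.14-fold. The other TNFAIP3 probe set read 634, 637 and 700.0 in control and 1334, 1457 and 1429 in versican arrays, a log2 fold change of 1.08. Both probe sets of A20 thus showed a difference of like size. TNFAIP3 was number 59 of 9887 tested genes by size of increase, a rank that only describes a gene chosen for its rise.

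MIR146A was dim in control arrays, at 119, 101 and 88.6, and read 449.7, 395 and 396 in versican arrays. All versican arrays were above all control arrays. Mean signal was 103 ± 15.4 and 414 ± 31.3 (SD, n = 3 each), a ratio of 4.02, and on the log2(signal + 16) scale, which understates changes of dim genes, the fold was 3.63 (log2 1.86). With a pseudocount of 1 the log2 value was 2.01 and with 64 it was 1.52. MIR146A passed the filter on low signal (lowest mean 201) only through its versican arrays. Its other probe set was near the bottom of the scale, at 7.01, 4.25 and 9.55 in control and 13.6, 13.8 and 39.1 in versican arrays. Because RNA of whole dishes was measured, more cells that make a transcript and more transcript per cell cannot be told apart.

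NFKBIA encodes IkB alpha, the inhibitor that NF-kB renews within a feedback loop. Its signal was 5548, 5974 and 5936 in control and 5946, 5663 and 5923 in versican arrays. The ranges overlapped, the means were 5819 ± 236 and 5844 ± 157 (SD, n = 3 each), and the log2 fold change was 0.01. Of all tested genes, 97.9% had a larger change in either direction, a share that only describes a gene chosen for its near-equal signal. A dim second NFKBIA probe set read 31.7, 48.1 and 37.6 in control and 48.1, 71.9 and 43.3 in versican arrays, also overlapping. When both probe sets were averaged, the log2 value of NFKBIA was 0.18, since the dim probe set then counts as much as the bright one.

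**Figure D2:**
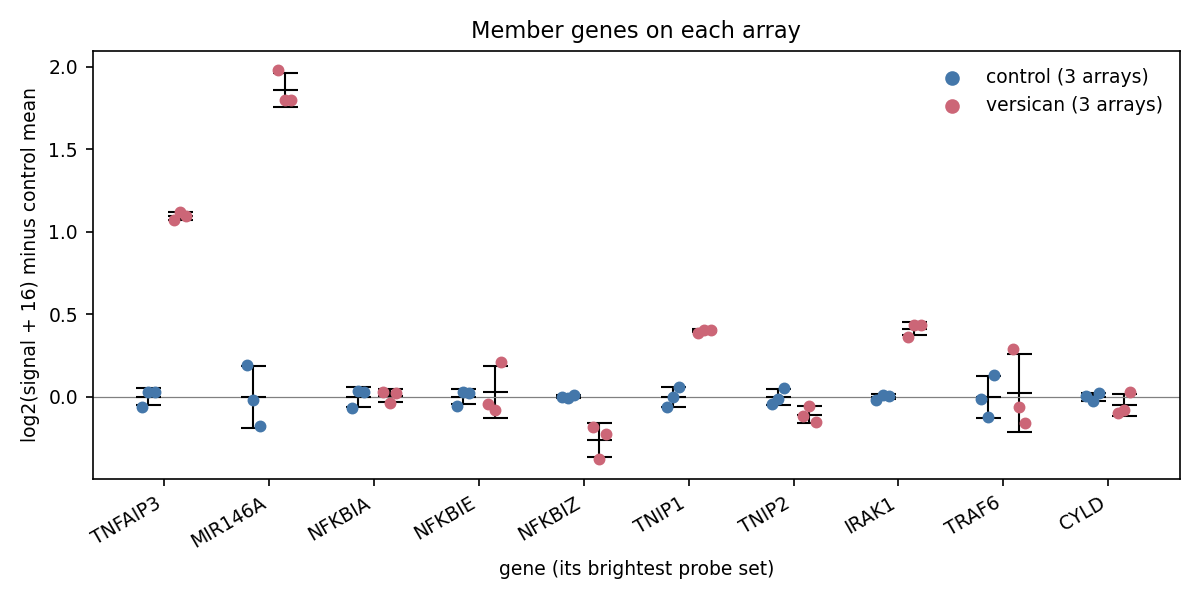
Each point is 1 array; the y axis is log2(signal + 16) minus the control mean of that gene, bars are mean and SD over 3 arrays, and the x axis lists the 10 genes by their brightest probe set. MIR146A and TNFAIP3 lie 1.86 and 1.10 above control, TNIP1 and IRAK1 0.40 and 0.41 above, and NFKBIZ 0.26 below.

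Of the 7 tested members, 2 rose (TNIP1 and IRAK1), 1 fell (NFKBIZ) and 4 did not pass (limma, Benjamini-Hochberg adjusted p at most 0.05 over 9887 genes). Over all tested genes 21.0% rose, 20.6% fell and 41.6% changed either way, so these counts do not set the 7 genes apart from the rest. The groups did not overlap for TNIP1, IRAK1, NFKBIZ and TNIP2, which was the case for 52.2% of all tested genes.

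Of the other IkB genes, NFKBIE did not pass and NFKBIZ fell slightly. NFKBIE, which encodes the cytoplasmic inhibitor IkB epsilon, read 645, 685 and 679 in control and 649.5, 633 and 777 in versican arrays. The highest and the lowest value were both versican arrays, and the log2 fold change was 0.03 (95% interval -0.17 to 0.23, adjusted p = 0.816). NFKBIZ encodes IkB zeta, a nuclear member of the family that works mainly as a coactivator of late NF-kB targets. Its brighter probe set read 5809, 5775 and 5845 in control arrays and 5117, 4467 and 4976 in versican arrays. Every versican array was below every control array, and NFKBIZ fell by 0.26 on the log2 scale (SE 0.06, adjusted p = 0.0046). The call was lost after median centring of the arrays (adjusted p = 0.0936) and with the mean of its probe sets (0.0577). The other NFKBIZ probe set, with 2706, 2679 and 2871 against 2689, 2605 and 2854, overlapped and had a log2 fold change of -0.02 (adjusted p = 0.824). The change differed by 0.24 on the log2 scale between both probe sets, with no overlap between groups (p = 0.10 by a two-sided exact permutation test, which cannot go lower with 3 arrays a group).

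A20 works with ubiquitin-binding partners, and these did not move together. TNIP1 encodes ABIN-1, which brings A20 to ubiquitinated targets. Its bright probe set read 6024, 6287 and 6552 in control and 8236, 8328 and 8319.6 in versican arrays. Versican arrays were all higher and lay close together. TNIP1 rose 1.32-fold (log2 0.40, SE 0.05, adjusted p = 0.000118). Its dim probe set read between 95.04 and 143 in control and between 91.1 and 172 in versican arrays, a log2 fold change of 0.01 with a wide 95% interval of -0.50 to 0.52 (adjusted p = 0.976). With the mean of the probe sets the adjusted p of TNIP1 was 0.149, and it was 0.976 without _s_at probe sets, where only the dim one remains.

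TNIP2 encodes ABIN-2, a related partner that also stabilizes the kinase TPL2. Its brightest probe set read 1541, 1575 and 1645 in control and 1462, 1527 and 1424 in versican arrays. The groups did not overlap, but the log2 fold change of -0.11 did not pass (95% interval -0.24 to 0.02, adjusted p = 0.157). A further TNIP2 probe set, which may cross-hybridize by its _x_at suffix, read 1475, 1549.7 and 1644 against 1298, 1132 and 1208. As a unit of its own it fell by 0.36 (SE 0.07, adjusted p = 0.00303). The third had a log2 fold change of -0.11 and overlapped (adjusted p = 0.438). With the mean of all probe sets, TNIP2 fell by 0.19 (adjusted p = 0.0158). The difference in change between the first 2 of these probe sets was 0.25 on the log2 scale (two-sided exact permutation test, p = 0.10).

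CYLD, a deubiquitinase that trims the chains on which the pathway signals, had the most probe sets (7). The brightest read 691, 676 and 699.7 in control and 643, 650.0 and 702 in versican arrays. The ranges overlapped, and the log2 fold change was -0.05 (95% interval -0.21 to 0.11, adjusted p = 0.614). Of the 7 CYLD probe sets 4 were bright enough to be tested as units of their own, and none of the 4 passed (limma adjusted p from 0.229 to 0.903). The lowest of these belonged to a probe set at 172, 174 and 210.3 against 212, 224 and 217, the only CYLD probe set whose groups did not overlap (log2 0.22).

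Of the 2 miR-146a targets upstream of NF-kB, IRAK1 rose and TRAF6 did not pass. IRAK1, the receptor-proximal kinase, read 6821, 6964 and 6913 in control and 8894, 9350.1 and 9325 in versican arrays. All versican arrays were higher by far more than the spread within a group. IRAK1 rose 1.33-fold (log2 0.41, SE 0.05, adjusted p = 6.76e-05). Its dim probe set read 217, 192 and 240.2 against 237, 267 and 259, overlapped, and had a log2 fold change of 0.22 (95% interval -0.06 to 0.50, adjusted p = 0.215). The change differed by 0.19 between both IRAK1 probe sets, with overlap between groups (two-sided exact permutation test, p = 0.20). TRAF6, the ubiquitin ligase downstream of IRAK1, read 259, 239 and 288 in control and 323, 250.1 and 233 in versican arrays. The versican arrays spanned the control range on both sides. Its log2 fold change was 0.02 (95% interval -0.29 to 0.34, adjusted p = 0.906). The second TRAF6 probe set gave 0.13 (adjusted p = 0.5) and overlapped.

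**Figure D3:**
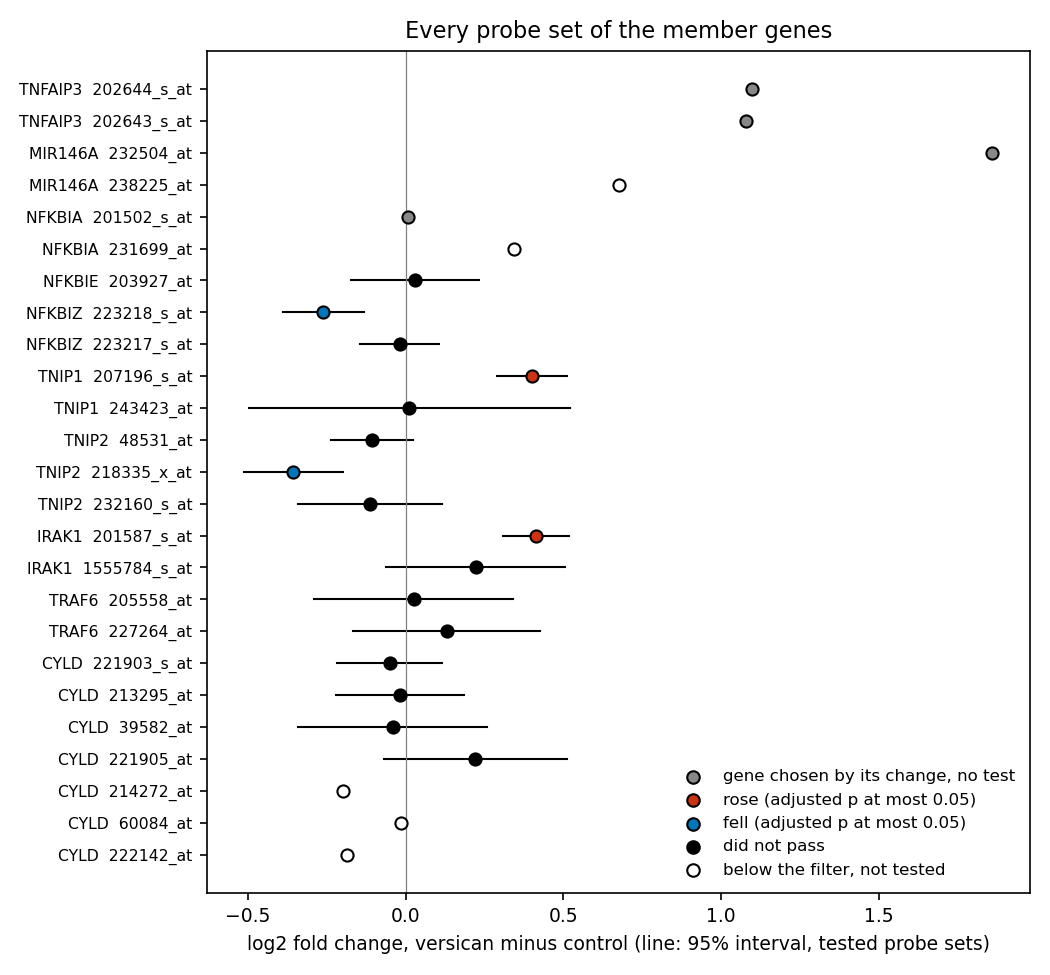
Log2 fold change (x axis, versican minus control) of all 25 probe sets of the 10 genes (y axis), with 95% intervals for tested probe sets of the 7 tested genes; grey points are the 3 genes chosen by their change and open points were below the filter. Of the 16 tested probe sets of the 7 genes, 2 rose, 2 fell and 12 did not pass.

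With every probe set as its own unit, 20 of the 25 member probe sets passed the filter and 5 were below it. Of the 16 that belonged to the 7 tested genes, 2 rose and 2 fell. Over 20545 tested probe sets 16.5% rose, 16.7% fell and 33.2% changed either way, so the members' counts are again near the background. The called probe sets were the bright ones of TNIP1 and IRAK1, that of NFKBIZ and the _x_at one of TNIP2.

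Genes with the most similar step across the 6 arrays were found by the Euclidean distance between log2 values, each centred on the gene's own mean. Nearest to TNFAIP3 were CDCA8 (distance 0.077), CENPF (0.087), DTL (0.092), HJURP (0.095) and BIRC5 (0.107). Their log2 fold changes ran from 1.06 for BIRC5 to 1.15 for CENPF, beside 1.10 for TNFAIP3. Nearest to MIR146A were TMEM200A (0.184), HMGA2 (0.259), TMEM158 (0.406), XDH (0.407) and ANKRD22 (0.441). Their values ran from 1.58 for ANKRD22 to 1.97 for TMEM200A, beside 1.86. The distance is made mostly of the difference between groups, so it ranks genes whose step was of like size.

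Around the members, 20 of 30 tested genes of the signalling machinery did not pass. The 4 lists used from here on were drawn up with earlier results of these data known, so their counts are a description only. Of 42 listed receptors, adaptors, kinases and NF-kB subunits, 37 were measured and 30 tested, of which 2 rose, 8 fell and 20 did not pass, with a median log2 fold change of -0.03 against 0.01 for all tested genes, of which 21.0% rose and 20.6% fell. CD40, a receptor of the TNF family, went from 2107 ± 51.8 to 3019 ± 57.1 (SD, n = 3 each) and rose 1.43-fold (log2 0.52, SE 0.05, adjusted p = 2.08e-05). NFKB1, which encodes the p105 precursor of the p50 subunit and is itself a known NF-kB target, rose 1.25-fold (log2 0.33, adjusted p = 0.00213). TLR3, the sensor of double-stranded RNA, went from 561 ± 92.8 to 324 ± 60.3 (SD, n = 3 each) and fell by 0.76 (adjusted p = 0.00235). TRAF5, an adaptor of TNF family receptors, fell by 0.30 (adjusted p = 0.000995), but not with the mean of its probe sets (adjusted p = 0.561).

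Of genes on the interleukin-1 and TNF side, named after their values were seen, IL1RAP, the accessory chain of the interleukin-1 receptor, fell by 0.75 (adjusted p = 0.00652), with control replicate 1 at 373 and the other control arrays at 621 and 620.3. TNFRSF1A, the main TNF receptor, fell by 0.27 (adjusted p = 0.003), though not after median centring (0.0648). RELA, the main activating subunit, had a log2 value of -0.19 that passed narrowly (adjusted p = 0.0413) and was lost without control replicate 1 or 2 or versican replicate 2 or 3 (adjusted p from 0.0565 to 0.146), though not without control replicate 3 or versican replicate 1. With the mean of its probe sets RELA fell by 0.38 (adjusted p = 0.0106). The kinases CHUK and IKBKB, the catalytic pair of the IkB kinase, had log2 values of -0.00 and 0.00 and did not pass. After median centring, which moved the median log2 fold change of all tested genes from 0.01 to 0.03, 4 machinery genes rose and 4 fell. Over all genes 1636 then rose and 1382 fell, against 2081 and 2036 without centring. The array medians were signals of 62.8 to 75.8, highest in control replicate 1, and all lay below the dimmest tested gene (201).

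Among 25 other inhibitors of the pathway and enzymes of its ubiquitin chains (other negative regulators in the plot of the 4 lists), 22 were measured and 17 tested, and 3 rose, 8 fell and 6 did not pass, against 21.0% rising and 20.6% falling over all tested genes. The median log2 fold change was -0.11, against 0.01 over all tested genes. Not every member is an inhibitor: UBE2N and RBCK1, a subunit of the linear ubiquitin ligase, are known to promote signalling. RBCK1, named after its value was seen, was among the genes that fell (by 0.23, limma adjusted p = 0.00615). Its call was lost after median centring (adjusted p = 0.153) and with the mean of its probe sets (0.119). ATF3, a stress-induced repressor of cytokine genes, went from 3396 ± 79.1 to 2401 ± 55.2 (SD, n = 3 each) and fell by 0.50 (adjusted p = 2.41e-05). DUSP1, a phosphatase of p38 and JNK, fell by 0.41 (adjusted p = 0.00011). UBE2N, the ubiquitin-conjugating enzyme that works with TRAF6 and is a target of A20, rose 1.31-fold (log2 0.39, adjusted p = 0.000263), and its log2 value was 0.26 with _x_at and _s_at probe sets left out. COMMD1, which promotes the degradation of RelA, rose 1.42-fold (log2 0.51, adjusted p = 0.000278). Median centring left 3 rising and 5 falling genes in this list. Without versican replicate 1 the list had 5 falling genes as well.

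A20 partners in this list, named after their values were seen, did not rise as TNIP1 did. TAX1BP1, an adaptor that brings A20 to its substrates, fell by 0.18 (adjusted p = 0.0121), and RNF11, another subunit of the A20 complex, fell by 0.21 (adjusted p = 0.0341). ITCH, the ligase of the same complex, had a log2 value of -0.11 and did not pass (adjusted p = 0.139). Neither call was firm: that of TAX1BP1 was lost without versican replicate 1 (adjusted p = 0.0653), with the mean of its probe sets (0.379) and with median centring (0.321). With _x_at and _s_at probe sets left out its value was 0.12 (0.693). RNF11 was lost when any array but control replicate 2 was removed (adjusted p from 0.0504 to 0.117).

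IL1RN and IL1R2, inhibitors of interleukin-1 signalling, were too dim for the main test and were named after their values were seen. IL1RN, the secreted receptor antagonist, had a mean of 135 ± 15.6 without and 283 ± 31.1 with versican (SD, n = 3 each). IL1R2, the decoy receptor, read 37.3 ± 9.36 and 89.7 ± 23.0 (SD, n = 3 each). In a fit with no filter on low values both rose, 1.97-fold each (adjusted p = 0.00148 and 0.0284).

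Known inducible targets of NF-kB moved in both directions while A20 and miR-146a transcripts were higher. Of 31 listed, 30 were measured and 24 tested, and 12 rose, 7 fell and 5 did not pass, against 21.0% rising and 20.6% falling over all tested genes. Because the list was drawn up with earlier results of these data known, these shares are a description only. Their median log2 fold change was 0.11 against 0.01 over all tested genes, and the range was -0.92 to 2.95. MMP9, a gelatinase, had a log2 fold change of 2.95 (adjusted p = 9.9e-10). The chemokines CXCL1 and CXCL2 had 1.54 and 1.39 (adjusted p = 5.94e-08 and 1.45e-07), and IL1B, the cytokine that signals through IRAK1 and TRAF6, had 1.26 (1.43e-07). CXCL1 and CXCL2 are similar in sequence and may share probe signal, and the log2 value of CXCL2 was 0.91 with the mean of its probe sets. IL6, which depends on IkB zeta in other cells, rose 1.80-fold (named after its value was seen, log2 0.85, adjusted p = 2.78e-06). Of the NFKBIZ probe sets only the brighter was lower, and the other had a log2 fold change of -0.02. TNFAIP2, GADD45B and ICAM1, also named after their values were seen, fell by 0.92, 0.90 and 0.74 (adjusted p = 1.03e-06, 1.58e-06 and 8.65e-05). The GADD45B call was lost without _x_at and _s_at probe sets (adjusted p = 0.119). TNF itself read 104 ± 28.1 and 115 ± 13.5 (SD, n = 3 each), below the filter. CCL2 and CXCL10, named after their values were seen, were also below it. In a limma fit with no filter on low values these 2 chemokines rose (log2 1.52 and 0.88, adjusted p = 0.00504 and 0.046). TNF, CCL20, VCAM1 and BCL2A1 did not pass in that fit.

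Transcripts reported elsewhere as targets of miR-146a, besides IRAK1 and TRAF6, rose in 5 of 7 tested cases. Of 10 listed, 9 were measured, and of the 7 tested 1 fell and 1 did not pass, where 21.0% of all tested genes rose and 20.6% fell, with a median log2 fold change of 0.26 against 0.01 for all tested genes. This list, too, was drawn up with earlier results of these data known. FAS, a death receptor, went from 1402 ± 69.1 to 2532 ± 26.8 (SD, n = 3 each) and rose 1.80-fold (log2 0.85, adjusted p = 2e-06). EGFR, the epidermal growth factor receptor, rose 1.29-fold (adjusted p = 0.000129). IRAK2, a relative of IRAK1, rose 1.28-fold (adjusted p = 0.00301), and CARD10, an adaptor that links receptors to the IkB kinase, rose as well (log2 0.26, adjusted p = 0.00302). COPS8, named after its value was seen, also rose (log2 0.20, adjusted p = 0.0183). Its call was lost with median centring (adjusted p = 0.122) and without versican replicate 1 or 2 (0.064 and 0.0631). With the mean of probe sets 1 of these genes rose, FAS, and 0 fell. EGFR, IRAK2 and COPS8 were lost in that setting (adjusted p = 0.732, 0.227 and 0.275), and CARD10 was not tested in it. The gene that fell was SMAD4 (log2 -0.21, adjusted p = 0.0304), and its call was lost without control replicate 2 or 3 or versican replicate 1 or 2 (adjusted p from 0.0563 to 0.115). Its probe sets differed: with _x_at and _s_at probe sets left out the log2 value was -0.67 (adjusted p = 6.6e-05), and with the mean of all its probe sets it was -0.10 (0.556).

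**Figure D4:**
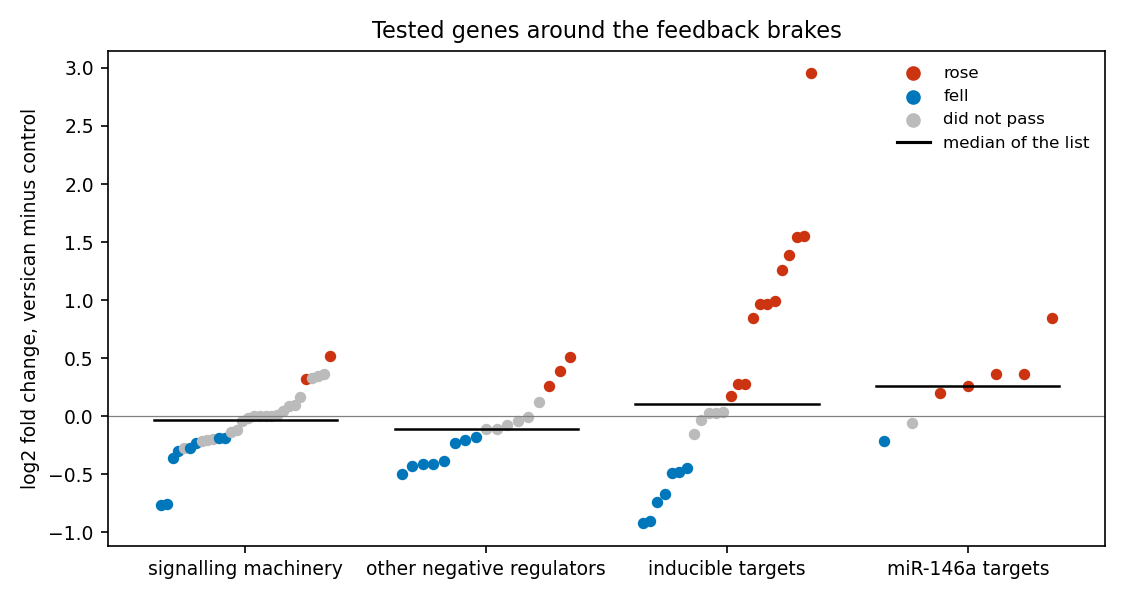
Log2 fold change (y axis, versican minus control) of each tested gene in the 4 lists (x axis), sorted within a list; red points rose and blue points fell at adjusted p at most 0.05, grey points did not pass, and black lines are list medians. Inducible targets span -0.92 to 2.95, while the signalling machinery stays within -0.76 to 0.52.

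Leukocytes make much A20 and miR-146a, so markers of other cell types were read on the same arrays. Every sample is titled OVCA433, a cell line, and no title names another cell type. Of 13 leukocyte markers 11 were measured, and their summed signal was 1100 to 1129 in control and 1249 to 1333 in versican arrays. Most of that sum was LAPTM5, a lysosomal membrane protein, which rose 1.24-fold (adjusted p = 0.00321). PTPRC, which encodes CD45, had means of 14.5 ± 1.88 without and 25.3 ± 5.77 with versican, CD14 had 29.9 ± 23.9 and 23.8 ± 18.3, and CD3E had 36.4 ± 10.02 and 31.5 ± 14.2 (SD, n = 3 each), all below the filter. Summed signal of 9 fibroblast markers was 5210 to 5303 in control and 2714 to 3226 in versican arrays, mostly COL1A1, and that of 5 endothelial markers was 229 to 384 and 232 to 351. The part of these markers in the members' values was not tested.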

How the data were processed

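Intensity values were deposited by the authors as MAS5 signals per probe set, linear in scale; MAS5 is named in the submitters' processing notes. The 2% trimmed mean was 500.1 on every array; no MAS5 version or detection call was used here. GEO's platform annotation gave 41091 non-control probe sets 1 symbol and 1801 several; 41037 matched RefSeq by gene identifier.

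Values were analysed as log2(signal + 16) in R 4.3.3 with limma 3.58.1 (lmFit, eBayes with an intensity trend, two-sided, Benjamini-Hochberg at 0.05). Each gene was represented by its brightest probe set, and the upper 50% of genes by mean were tested. The fit was tested on simulated data with known changes. The number of arrays limits precision. Named genes are the 10 members, the 4 of smallest p per list, and the 5 nearest to TNFAIP3 and MIR146A; others are marked. Members and lists were chosen with earlier results of these data known. Sequences are from RefSeq (GRCh38.p14); promoters or proteins without an entry were not used here. Alternatives were pseudocounts of 1 and 64, 2 other filters, 3 normalizations, no trend, other choices of probe sets, a replicate block and leaving out each array.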

Additional observations from a re-analysis of the deposited data

How the results depend on the processing

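Quantile normalization, cyclic loess, either pseudocount and the fit without a trend moved no count of calls by over 1.5 times. Fewer genes were tested when only the upper 25% were kept, so counts there cannot be set against the main ones. In that setting 1290 genes rose and 1131 fell in all, with 3 falling inducible targets and 0 falling miR-146a targets. SMAD4 and ICAM1, which fell in the main fit, were not tested in it. With no filter 5 of the other inhibitors and ubiquitin enzymes (other regulators) rose. They included IL1RN and IL1R2, which the main filter had left out, and over all genes 1971 rose and 1936 fell. After median centring 1636 genes rose and 1382 fell in all, against 2081 and 2036 in the main fit. With this centring 0 members and 1 member probe set fell, 4 machinery genes rose and 4 fell, 5 other regulators fell and 0 miR-146a targets fell. With the mean of probe sets 1697 genes rose and 1604 fell in all. In that setting 1 member rose, 5 machinery genes and 5 other regulators fell, and of miR-146a targets 1 rose and 0 fell. Without _x_at and _s_at probe sets 1925 genes rose and 1895 fell in all, 1 member rose, and TAX1BP1 had a log2 value of 0.12. The cause of the other shifts was not tested. Leaving out 1 array at a time gave 5 to 8 falling other regulators and 0 to 1 falling miR-146a targets, and 2 rising and 1 falling members each time. MIR146A was below the filter among the upper 25%, with the mean of probe sets and without any 1 versican array. Deviations from the group means correlated at 0.119, -0.019 and -0.09 between arrays of the same number, so no pairing was assumed. With the replicate number as a block 2030 genes rose and 1943 fell, 2 members rose and 1 fell, and no call of a member changed.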
